A study of Mus musculus with 3 samples.

Results

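Messenger RNA of the genes that build cholesterol and fatty acids was followed in 3 kinds of cultured mouse cell of the epicardium, the sheet that covers the heart. The genes are 30 of the 18245 in the deposited table, taken by symbol from a list of genes under control of the sterol regulatory element-binding proteins (SREBPs), and all 30 passed the filter on low counts in every comparison. Of these, 17 encode enzymes of sterol synthesis, 5 encode regulators of the pathway or a sterol carrier, and 8 encode enzymes of fatty acid synthesis, elongation or desaturation.

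Cells build cholesterol from acetyl-CoA through mevalonate, squalene and lanosterol, and fatty acids from the same precursor through malonyl-CoA. The transcription factors SREBP-1 and SREBP-2, products of Srebf1 and Srebf2, are held in the endoplasmic reticulum by the sterol sensor Scap and its retention partner Insig1 while membrane sterol is plentiful, and move to the Golgi to be cut and released when it falls. SREBP-2 is known mainly for sterol synthesis genes and SREBP-1 for fatty acid genes, and Insig1 is itself a target, so that the pathway holds a feedback loop. Growing cultured cells meet their need for membrane lipid both by synthesis and by taking lipoproteins from serum.

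Cardiosphere-derived cells (CDC) had been grown from ventricle epicardium explants of 6-week-old C57BL/6 mice by way of floating spheres. The second kind (CDC-EpiC) was 1 epithelial clone that arose within 2 weeks when CDC received 10 µM SB-431542, which blocks signalling by the type I TGF-beta receptor. It had been isolated in a cylinder and freed of mesenchymal cells by the timing of trypsin. Primary epicardial cells (pEpiC) were digested from hearts of 6- to 8-week-old C57BL/6 mice. Each kind gave 3 libraries (n = 3 throughout), whose relation to animals or cultures is not given, so p-values measure only the spread between these libraries, and the spread of the clone's libraries holds no difference between clones. According to the methods, pEpiC and CDC were kept in different basal media with different amounts of serum, so that kind and medium cannot be told apart, and in bulk RNA a change in the share of cells of a type cannot be told apart from a change of RNA per cell.

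Libraries held 22008833 to 22756045 expected counts. CDC libraries 1 and 2 also held haemoglobin, albumin and heart muscle myosin transcripts that CDC library 3 nearly lacked (Hba-a1 at 523, 894 and 0 counts, Alb at 660, 599 and 1, and Myh6 at 191, 190 and 0), so counts are also given without them. Macrophage markers (10 genes) summed to 57.7 to 61.3 CPM in CDC (counts relative to the library total, after TMM normalization), 22.6 to 25.2 in CDC-EpiC and 311 to 894 in pEpiC, with the highest sum in pEpiC library 1. Of 7 adipocyte markers in the table, 5 (Adipoq, Plin1, Cfd, Lep and Retn) were at 0 to 4 counts in every library, whereas Fabp4 was at 709, 691 and 752 counts in pEpiC against 24 to 53 in the other kinds, and Plin4 at 150, 154 and 158 against 5 to 37. Epicardial markers (8 genes) were detected in every library, and 4 were higher and 4 lower in pEpiC than in CDC. In CDC-EpiC, 6 were higher and 1 lower than in CDC. Wt1 was at 202 to 250 counts in CDC, 2502 to 2998 in CDC-EpiC and 1082 to 1252 in pEpiC, Tcf21 at 261 to 274, 578 to 700 and 2182 to 2516, and Upk3b at 4767 to 5192, 55583 to 63219 and 1441 to 1796. Tbx18 was highest in CDC, at 1970 to 2072 counts against 1171 to 1407 in CDC-EpiC and 1094 to 1152 in pEpiC. Aldh1a2 was at 47 to 53 counts in CDC, 38 to 54 in CDC-EpiC and 407 to 519 in pEpiC. Cell cycle markers (16 genes) summed to 1645 to 1764 CPM in CDC, 787 to 967 in CDC-EpiC and 274 to 362 in pEpiC.

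The promoters of these genes are where SREBPs act together with NF-Y and Sp1, so the windows of 5 members with large differences between the kinds are shown. Each is the RefSeq sequence on GRCm38.p6 from 250 bases before to 50 bases after an annotated start, written 5′ to 3′ on the gene's strand: Hmgcs1 (chr13:119690101-119690400, plus strand), Idi1 (chr13:8885356-8885655, plus strand), Hsd17b7 (chr1:169969156-169969455, minus strand), Insig1 (chr5:28071162-28071461, plus strand) and Ebp (chrX:8193463-8193762, minus strand). Capitals mark the sterol regulatory element core, the E-box and the NF-Y box on either strand.
Hmgcs1: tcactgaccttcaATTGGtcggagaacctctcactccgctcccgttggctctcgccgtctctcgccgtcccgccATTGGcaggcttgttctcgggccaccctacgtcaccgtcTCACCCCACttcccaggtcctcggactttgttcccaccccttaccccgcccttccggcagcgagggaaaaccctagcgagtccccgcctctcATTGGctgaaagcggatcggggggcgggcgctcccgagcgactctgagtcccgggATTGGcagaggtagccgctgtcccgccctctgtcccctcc
Idi1: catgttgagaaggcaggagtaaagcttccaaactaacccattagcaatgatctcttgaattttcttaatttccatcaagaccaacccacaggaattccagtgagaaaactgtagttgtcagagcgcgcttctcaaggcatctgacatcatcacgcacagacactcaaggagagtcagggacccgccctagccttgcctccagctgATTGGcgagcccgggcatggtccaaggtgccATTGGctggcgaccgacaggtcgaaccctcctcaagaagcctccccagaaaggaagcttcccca
Hsd17b7: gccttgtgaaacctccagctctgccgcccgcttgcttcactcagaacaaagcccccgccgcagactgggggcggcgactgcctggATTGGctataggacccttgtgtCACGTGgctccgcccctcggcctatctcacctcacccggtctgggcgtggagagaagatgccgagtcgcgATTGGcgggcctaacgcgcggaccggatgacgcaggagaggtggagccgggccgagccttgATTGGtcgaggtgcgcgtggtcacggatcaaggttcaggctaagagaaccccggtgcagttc
Insig1: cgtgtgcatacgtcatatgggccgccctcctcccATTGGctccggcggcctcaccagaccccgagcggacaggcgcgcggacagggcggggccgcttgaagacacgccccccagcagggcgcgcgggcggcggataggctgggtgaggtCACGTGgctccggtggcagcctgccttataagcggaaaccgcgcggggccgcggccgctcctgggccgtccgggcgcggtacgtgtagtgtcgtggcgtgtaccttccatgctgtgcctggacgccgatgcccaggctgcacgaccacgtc
Ebp: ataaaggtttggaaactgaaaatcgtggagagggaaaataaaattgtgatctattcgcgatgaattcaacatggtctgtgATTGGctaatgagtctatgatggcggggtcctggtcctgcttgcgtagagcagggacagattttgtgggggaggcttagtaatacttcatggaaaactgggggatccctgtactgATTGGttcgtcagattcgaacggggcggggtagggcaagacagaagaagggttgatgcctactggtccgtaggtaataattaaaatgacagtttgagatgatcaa
Promoter windows were found for 23 of the 30 members. The sterol regulatory element core, TCACNCCAC, was searched on both strands and lay in 1 of the 23, Hmgcs1, where it began 137 bases before the start as TCACCCCAC. Of all genes with a window, 1.44% held the core. The E-box CACGTG, which SREBP-1 also binds, lay in 5 of 23 members (21.7%, Dhcr7, Hsd17b7, Insig1, Sc5d and Scap) and in 8.09% of all genes. The NF-Y box CCAAT lay in 18 of 23 members (78.3%) against 41.1% of all genes, and the Sp1 box GGGCGG, not capitalised here, in 19 of 23 (82.6%) against 38.2%. Hmgcs1 held 4 NF-Y boxes, Hsd17b7 held 3 and an E-box, Idi1 and Ebp held 2 each, and Insig1 held 1 and an E-box. Fads2, Pmvk, Scap and Acat2 also have windows, which are not shown. Between CDC-EpiC and pEpiC they differed more than Insig1 (log2 changes of 1.06, 1.04, 0.85 and 0.81, against -0.76). The windows of Fads2 and Acat2 held no sterol regulatory element core, E-box or NF-Y box. All motifs are matches of letters in a short window, and members with several start sites were counted once if any window held the motif.

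Every member was expressed in every library. Per unit of length, on the TPM scale, Fdps (378 ± 4.01 TPM, mean ± SD), Scd2 (366 ± 45.6) and Fads2 (266 ± 19.6) were the most abundant in CDC. Fads2 (584 ± 46.2) led in CDC-EpiC and Scd2 (616 ± 40.2) in pEpiC. Elovl6 was the least abundant of the 30 in all 3 kinds, at 11.7 ± 1.33 TPM in CDC, 8.99 ± 0.516 in CDC-EpiC and 20.4 ± 1.26 in pEpiC. Summed over the 17 sterol enzymes, CPM were 2044 ± 113 in CDC, 1926 ± 39.2 in CDC-EpiC and 2042 ± 69.7 in pEpiC, a spread between kinds close to that between libraries. On TPM, where the median of all genes was also higher in pEpiC, the sterol sums were 1546 ± 112 in CDC, 1510 ± 50.6 in CDC-EpiC and 1967 ± 83.5 in pEpiC. Summed over the 8 fatty acid enzymes, CPM were 2685 ± 177, 3013 ± 127 and 3801 ± 166 in the same order, so that the pEpiC sum stood apart from the other two before any account of transcript length.

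**Figure D1:**
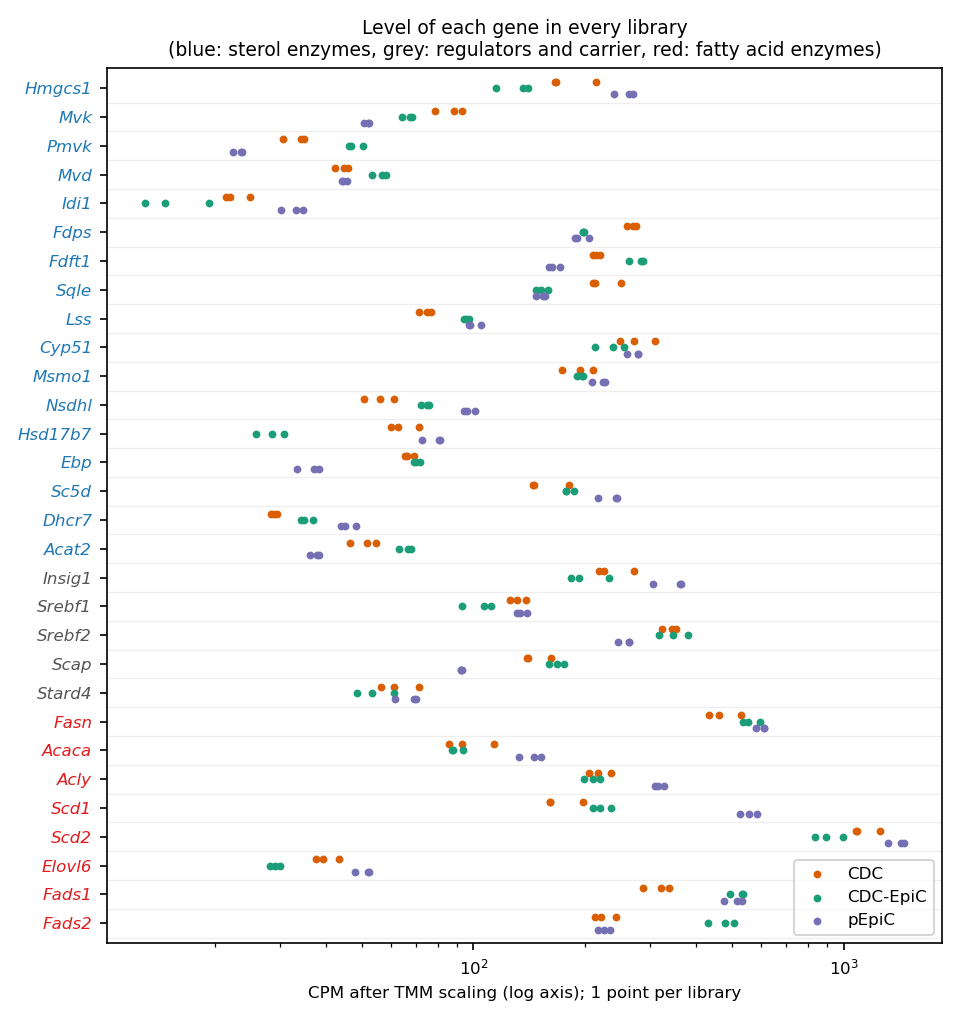
CPM (log axis) of the 30 genes in each of the 9 libraries, grouped by role, with 1 point per library coloured by kind. Scd1 lies between 526 and 582 CPM in pEpiC and between 161 and 235 in the other libraries, Fads2 is high in CDC-EpiC alone (429.5 to 507 CPM), and Hsd17b7 is low in CDC-EpiC alone (25.9 to 30.7 CPM).

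Differences between the kinds were common among these genes, as they were across the transcriptome. In pEpiC against CDC, 24 of 30 members were called (edgeR quasi-likelihood test, Benjamini-Hochberg adjusted p under 0.05 over all genes tested), 15 higher and 9 lower, where 78.3% of all genes tested were called, 39.8% higher and 38.5% lower. In CDC-EpiC against CDC, 22 were called, 11 higher and 11 lower, against a background of 68.8% (34.2% higher and 34.6% lower). In CDC-EpiC against pEpiC, 25 were called, 9 higher and 16 lower, against 81.9% (40.3% higher and 41.5% lower). The 3 libraries of each kind did not overlap for 24, 20 and 26 members in these comparisons, where the background was 81.5%, 72.1% and 84.0%. The number of members that differed was therefore near the background in each comparison and is no result about these genes. The comparisons share libraries, so their counts are not independent. The macrophage and cell cycle markers, Fabp4 and Plin4 given above also differed between the kinds, and their part in the differences was not tested.

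The sterol enzymes went both ways in every comparison. Of the 17, 7 were higher and 7 lower in pEpiC than in CDC, 7 higher and 7 lower in CDC-EpiC than in CDC, and 6 higher and 8 lower in CDC-EpiC than in pEpiC. Their median log2 changes were -0.03, 0.06 and -0.06, beside medians over all genes of 0.02, 0.00 and -0.02. Of the 5 regulators, 1 was higher and 2 lower in pEpiC than in CDC, 2 were lower in CDC-EpiC than in CDC, and 2 were higher and 3 lower in CDC-EpiC than in pEpiC. The fatty acid enzymes leaned upward in pEpiC, with 7 of 8 higher and none lower than in CDC (median log2 change 0.39), a direction that turned for 4 of them once transcript length was taken into account. In CDC-EpiC, 4 of the 8 were higher and 2 lower than in CDC (median 0.08), and 1 was higher and 5 lower than in pEpiC (median -0.61, and -0.16 with 2 higher and 4 lower once length was taken into account).

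**Figure D2:**
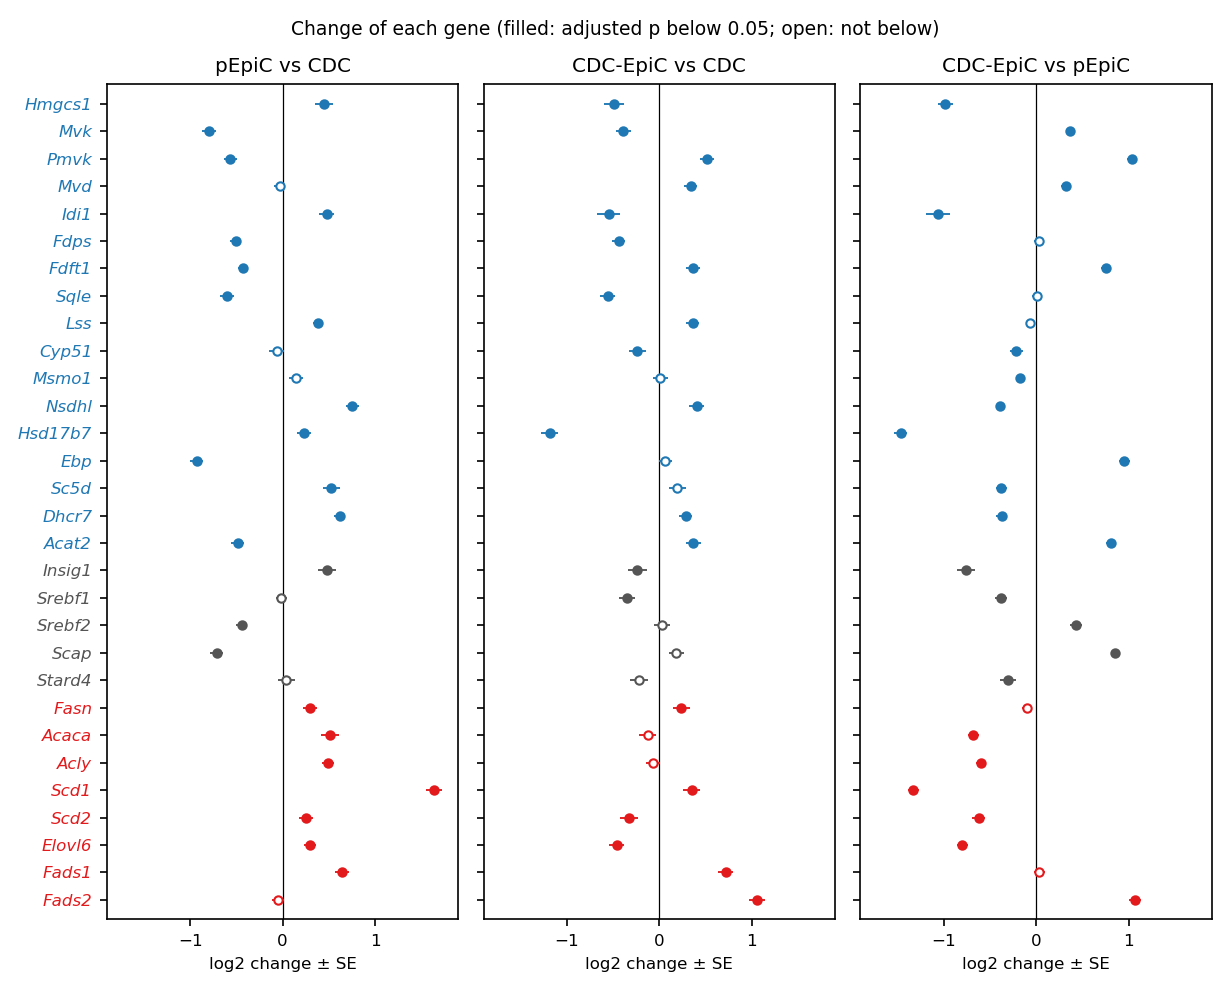
Log2 change ± SE of each member in the 3 comparisons, by role. Filled points passed an adjusted p of 0.05 and open points did not. The sterol enzymes lie on both sides of 0 in every panel, and Scd1 in pEpiC (1.64 against CDC) is the point farthest from 0.

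Transcript length moved with these differences. Over 10688 genes, the log2 change in pEpiC against CDC was higher by 0.440 for each doubling of transcript length, and in CDC-EpiC against pEpiC it was lower by 0.435, whereas the slope in CDC-EpiC against CDC was 0.00633. Fatty acid members are long (median transcript 5209 bases, against 2872 over all genes tested and 2398 for sterol members). With an offset for length, the fatty acid median in pEpiC against CDC was -0.02 in place of 0.39, and 4 were then higher (Acly, Scd1, Fads1 and Fads2) and 4 lower (Fasn, Acaca, Scd2 and Elovl6). On TPM, by contrast, the median of all genes itself shifted by 0.41 and 74.5% of all calls were higher in pEpiC, in place of 50.8% on counts, and 21 members were higher and 3 lower. In CDC-EpiC against pEpiC on TPM, the median of all genes was -0.33, with 6 members higher and 21 lower. The source of the trend with length was not tested. With the offset, 9 of the 15 higher and 7 of the 9 lower calls of members in pEpiC against CDC kept their direction and call, as did 7 of the 9 higher and 12 of the 16 lower calls in CDC-EpiC against pEpiC and all 11 and 11 in CDC-EpiC against CDC. The 6 members not called on counts in pEpiC against CDC (Mvd, Cyp51, Msmo1, Srebf1, Stard4 and Fads2) were called with the offset, as were Fdps, Lss and Fasn in CDC-EpiC against pEpiC. Length-adjusted values are therefore given below where the offset changed a call, and for many other members, and CDC-EpiC against CDC is the comparison that the trend touched least.

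**Figure D3:**
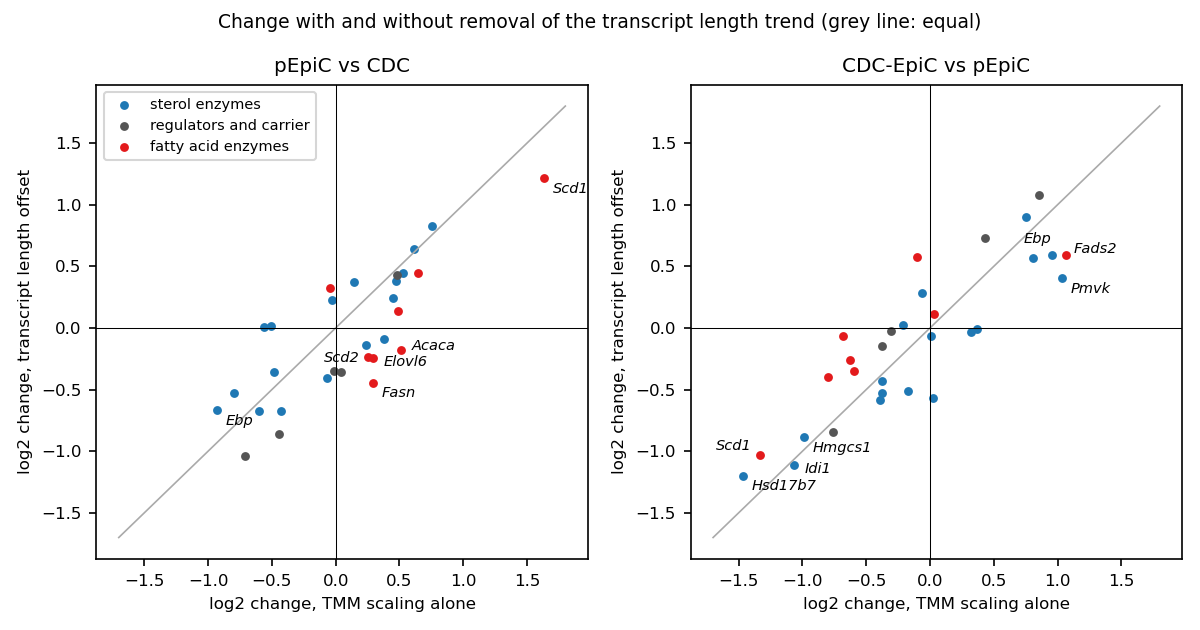
Log2 change of each member with an offset for transcript length (y) against the log2 change without it (x), in pEpiC against CDC and in CDC-EpiC against pEpiC. Points off the diagonal moved with the offset, as did Fasn (from 0.30 to -0.44 in pEpiC against CDC), and Scd1 stayed above 1 (from 1.64 to 1.21).

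Early in the mevalonate branch stands Hmgcs1 (NCBI Gene 208715, chromosome 13, 119690351 to 119708260), whose product, HMG-CoA synthase, joins acetyl-CoA to acetoacetyl-CoA. Hmgcs1 was at 166, 168 and 214 CPM in CDC, 140.0, 115 and 136 in CDC-EpiC and 240.4, 269 and 263 in pEpiC. No libraries overlapped between kinds, and pEpiC was highest and the clone lowest. The log2 change was 0.45 ± 0.0967 (SE), adjusted p = 0.00157 in pEpiC against CDC, or 0.24 with the length offset, and -0.49 ± 0.104 (SE), adjusted p = 0.000655 in CDC-EpiC against CDC. Between CDC-EpiC and pEpiC it was -0.98 ± 0.0792 (SE), adjusted p = 1.28e-06, and -0.89 with the length offset. Its promoter is the window above that holds the sterol regulatory element core.

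Idi1 (NCBI Gene 319554, chromosome 13, 8885606 to 8892396), the isomerase that makes dimethylallyl diphosphate, had the same order as Hmgcs1. Its libraries were at 21.5, 21.9 and 25.0 CPM in CDC, 19.2, 12.9 and 14.7 in CDC-EpiC and 34.7, 33.1 and 30.1 in pEpiC, without overlap. It was higher in pEpiC than in CDC (log2 change 0.47 ± 0.0811 (SE), adjusted p = 0.000344), lower in CDC-EpiC than in CDC (-0.55 ± 0.124 (SE), adjusted p = 0.00106) and lower in CDC-EpiC than in pEpiC (-1.06 ± 0.130 (SE), adjusted p = 2.98e-05). The clone's libraries were uneven here, with a coefficient of variation of 20.8%, the highest of any member in any kind, with library 1 well above the other two.

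The other enzymes up to farnesyl diphosphate ran differently. Mvk, mevalonate kinase, was highest in CDC, at 93.3, 88.3 and 78.6 CPM against 64.0, 68.2 and 67.4 in CDC-EpiC and 50.5, 51.9 and 52.3 in pEpiC, and was lower in pEpiC than in CDC by any scaling (log2 change -0.80, and -0.53 with the length offset). Pmvk, phosphomevalonate kinase, was highest in the clone, at 46.0, 46.8 and 50.3 CPM against 34.1, 34.9 and 30.6 in CDC and 22.4, 23.7 and 23.6 in pEpiC. Its log2 change was 0.51, adjusted p = 3.49e-05 in the clone against CDC, and it also exceeded pEpiC (1.04, adjusted p = 8.2e-08, or 0.40 with the length offset), whereas its lower level in pEpiC than in CDC (-0.56) was 0.01 with the offset. Mvd, mevalonate diphosphate decarboxylase, was higher in the clone (58.1, 53.4 and 56.5 CPM) than in CDC (45.8, 44.6 and 42.2), with a log2 change of 0.34, adjusted p = 0.00086, and pEpiC (45.4, 44.3 and 44.2) overlapped CDC, although with the offset pEpiC was higher than CDC (0.22) and the clone's difference from pEpiC went from 0.32 to -0.03. Fdps, farnesyl diphosphate synthase, was higher in CDC (270.3, 275 and 259 CPM) than in CDC-EpiC (199, 198 and 198) and pEpiC (188, 189.9 and 206), which overlapped each other, although the clone was lower than pEpiC with the length offset (-0.57). In CDC-EpiC against CDC its log2 change was -0.44, adjusted p = 6.11e-05, and the difference between pEpiC and CDC (-0.51) was 0.01 with the length offset. Acat2, the cytosolic thiolase that condenses acetyl-CoA at the head of the branch, was higher in the clone (66.5, 63.0 and 67.7 CPM) than in CDC (46.3, 51.6 and 54.7) and pEpiC (38.3, 36.2 and 37.8), with log2 changes of 0.36, adjusted p = 0.000794 and 0.81, adjusted p = 2.34e-07.

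After farnesyl diphosphate, Fdft1, squalene synthase, commits the pathway to sterols. It was at 287, 283 and 263 CPM in CDC-EpiC, 210.1, 219.6 and 215 in CDC and 159.5, 163 and 171 in pEpiC, an order opposite to that of Hmgcs1 with no overlap between kinds on CPM, although on TPM the libraries of pEpiC (107 ± 4.39) and CDC (102 ± 4.21) overlapped and the order of these means was turned. The log2 change was 0.36 ± 0.0744 (SE), adjusted p = 0.000475 in CDC-EpiC against CDC and 0.75 ± 0.0555 (SE), adjusted p = 6.61e-07 in CDC-EpiC against pEpiC. Sqle, squalene epoxidase, was at 213, 211 and 249.6 CPM in CDC, 147, 153 and 159 in CDC-EpiC and 147, 154 and 156 in pEpiC. It was lower in CDC-EpiC than in CDC (-0.56, adjusted p = 2.47e-05) and overlapped between CDC-EpiC and pEpiC (0.00, adjusted p = 0.941). Lss, which closes the rings to lanosterol, was lower in CDC (75.0, 71.3 and 76.7 CPM) than in CDC-EpiC (95.7, 94.4 and 97.1) and pEpiC (97.8, 105 and 97.3) (log2 change in the clone 0.36, adjusted p = 0.00034), and the difference in pEpiC (0.38) was -0.09 with the length offset, when the clone was higher than pEpiC (0.28). Cyp51, lanosterol 14-demethylase, was highest in CDC library 3 (249, 271 and 309 CPM in CDC, 255, 213 and 238 in CDC-EpiC and 260.3, 278 and 279 in pEpiC), and CDC overlapped both other kinds, although the difference between CDC-EpiC and CDC passed the test (-0.24, adjusted p = 0.0342). That call was lost in 8 alternatives, among them without CDC library 3 (-0.15) and without CDC-EpiC library 2 (-0.18) or 3 (-0.26). With the length offset Cyp51 was lower in pEpiC than in CDC (-0.41), and its call in CDC-EpiC against pEpiC (-0.21) was lost (0.03). Msmo1, the C4-methyl oxidase, was at 174, 194 and 210.4 CPM in CDC, 197, 198 and 190.1 in CDC-EpiC and 209, 226 and 223 in pEpiC. On counts it differed little from CDC in pEpiC (0.14) and in CDC-EpiC (0.01), neither called, and was called lower in CDC-EpiC than in pEpiC (-0.17). With the length offset Msmo1 was higher in pEpiC, by 0.37 against CDC and at -0.51 in CDC-EpiC against pEpiC.

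Hsd17b7 (NCBI Gene 15490, chromosome 1, 169949535 to 169969242), the 3-ketosteroid reductase that completes the removal of C4 methyl groups, was the sterol enzyme with the largest differences in both comparisons of the clone. It was at 25.9, 30.7 and 28.6 CPM in CDC-EpiC, 59.7, 62.5 and 71.1 in CDC and 72.6, 81.3 and 80.7 in pEpiC, and every library of the clone lay below every other library. The log2 change was -1.19 ± 0.0889 (SE), adjusted p = 1.34e-08 in CDC-EpiC against CDC, 2.28-fold lower, and -1.46 ± 0.0703 (SE), adjusted p = 2.88e-08 in CDC-EpiC against pEpiC, or -1.20 with the length offset. In CDC-EpiC against CDC it was the sterol member that passed a test against a 1.5-fold change. Nsdhl, the dehydrogenase that works just before it, went the other way in the clone. Nsdhl was at 56.0, 50.6 and 61.0 CPM in CDC, 72.0, 74.7 and 76.0 in CDC-EpiC and 95.8, 101 and 94.3 in pEpiC, with log2 changes of 0.40, adjusted p = 0.000365 in CDC-EpiC and 0.75, adjusted p = 4.29e-06 in pEpiC against CDC, the latter 0.83 with the offset.

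In the last steps, Ebp (NCBI Gene 13595, chromosome X, 8185329 to 8193512), the sterol isomerase, was low in pEpiC, at 38.2, 33.3 and 37.0 CPM against 69.2, 66.2 and 65.1 in CDC and 70.0, 69.1 and 71.5 in CDC-EpiC. The log2 change was -0.93 ± 0.0673 (SE), adjusted p = 6.68e-07 in pEpiC against CDC, or -0.67 with the length offset, and 0.95 ± 0.0593 (SE), adjusted p = 1.88e-07 in CDC-EpiC against pEpiC. CDC and CDC-EpiC did not differ beyond their spread for Ebp (0.06, adjusted p = 0.428). Sc5d, the C5 desaturase that follows, and Dhcr7, which makes cholesterol from 7-dehydrocholesterol, were highest in pEpiC. Sc5d was at 146, 145 and 181 CPM in CDC, 187, 178 and 178 in CDC-EpiC and 217, 242 and 244 in pEpiC, and Dhcr7 was at 28.3, 29.4 and 28.9 CPM in CDC, 34.1, 34.8 and 36.8 in CDC-EpiC and 43.8, 48.0 and 45.1 in pEpiC. In pEpiC against CDC their log2 changes were 0.53, adjusted p = 0.000358, and 0.62, adjusted p = 6.39e-06, and both were called higher with the length offset (0.44 and 0.64). Between pEpiC and CDC, neighbouring enzymes of the pathway differed in opposite directions. Ebp was lower and Sc5d, Dhcr7 and Nsdhl were higher in pEpiC than in CDC under every alternative other than the test against 1.5-fold. Ebp and Nsdhl passed that test too.

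Among the regulators, Insig1 (NCBI Gene 231070, chromosome 5, 28071412 to 28078662) and Scap (NCBI Gene 235623, chromosome 9, 110333288 to 110384949), which together hold SREBPs in the endoplasmic reticulum, differed in opposite directions. Insig1 was at 218, 226 and 272 CPM in CDC, 232, 184 and 193 in CDC-EpiC and 305, 361 and 363 in pEpiC. All pEpiC libraries lay above the others, and CDC and CDC-EpiC overlapped. The log2 change was 0.48 ± 0.0965 (SE), adjusted p = 0.00106 in pEpiC against CDC, 0.43 with the length offset, and -0.76 ± 0.0981 (SE), adjusted p = 4.5e-05 in CDC-EpiC against pEpiC. Without CDC libraries 1 and 2 the difference between pEpiC and CDC was 0.28 with an adjusted p of 0.0529, in a fit where the lone CDC library is assumed to vary like those of the other kind. The small difference between CDC-EpiC and CDC (-0.24, adjusted p = 0.0494) lost the call in 9 alternatives, among them without CDC library 3 (-0.14) and without CDC-EpiC library 2 (-0.19) or 3 (-0.22).

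Scap was at 162, 141 and 139.7 CPM in CDC, 159.9, 175 and 168 in CDC-EpiC and 93.0, 92.8 and 92.4 in pEpiC, so that every pEpiC library lay below every other. Its log2 change was -0.71 ± 0.0693 (SE), adjusted p = 5.6e-06 in pEpiC against CDC and 0.85 ± 0.0480 (SE), adjusted p = 9.06e-08 in CDC-EpiC against pEpiC, and the length offset widened both (-1.04 and 1.08). Srebf2 was at 352, 322 and 344 CPM in CDC, 316, 381 and 345 in CDC-EpiC and 245, 264 and 263 in pEpiC, lower in pEpiC than in CDC (log2 change -0.44, adjusted p = 8.38e-05, and -0.86 with the length offset). On TPM, a scale on which the median of all genes was higher in pEpiC, Srebf2 was at 124 ± 8.79, 132 ± 11.0 and 129 ± 7.08, within the spread of the libraries. Srebf1 was lower in the clone, at 92.8, 107 and 111 CPM against 139, 131 and 125 in CDC and 134, 139 and 131 in pEpiC, with a log2 change of -0.35, adjusted p = 0.00163 against CDC. Against pEpiC it was -0.38, a call lost with the length offset (-0.14, adjusted p = 0.0801). Its level in pEpiC overlapped that in CDC (-0.01) and was lower with the length offset (-0.35). Stard4, a soluble sterol carrier, was at 56.4, 61.1 and 71.3 CPM in CDC, 61.0, 48.4 and 53.2 in CDC-EpiC and 61.5, 68.9 and 70.1 in pEpiC, and passed the test on counts between CDC-EpiC and pEpiC (-0.30, adjusted p = 0.00851). With the length offset that call was lost (-0.02), and Stard4 was lower than in CDC in both pEpiC (-0.36) and CDC-EpiC (-0.31).

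Scd1 (NCBI Gene 20249, chromosome 19, 44394450 to 44407709), a stearoyl-CoA desaturase that makes oleate and palmitoleate, had the largest difference of all members before the length offset. It was at 526, 582 and 557 CPM in pEpiC, 161, 161 and 198 in CDC and 219, 210.0 and 235 in CDC-EpiC, and the kinds did not overlap. The log2 change was 1.64 ± 0.0881 (SE), adjusted p = 8.76e-08 in pEpiC against CDC, 3.11-fold, and remained 1.21 with the length offset. CDC-EpiC was 2.51-fold lower than pEpiC (-1.33 ± 0.0613 (SE), adjusted p = 2.18e-08). Against CDC the clone was higher (log2 change 0.35, adjusted p = 0.00321), a call that was lost without CDC libraries 1 and 2 (0.15, adjusted p = 0.208, with the lone CDC library assumed to vary like those of CDC-EpiC). Scd2, the paralogue on the same chromosome, had smaller differences and another order, at 1319, 1457 and 1428 CPM in pEpiC, 1083, 1085 and 1252 in CDC and 895, 839 and 999 in CDC-EpiC. In CDC-EpiC it was lower than in CDC (-0.33, adjusted p = 0.00596) and than in pEpiC (-0.62, adjusted p = 2.4e-05). In pEpiC against CDC its log2 change of 0.25 became -0.24 with the length offset. Reads that fit both paralogues were shared out by estimation, so the split between them is less certain than their sum.

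Fads2 (NCBI Gene 56473, chromosome 19, 10062765 to 10101503), the delta-6 desaturase that starts the making of polyunsaturated fatty acids, set the clone apart. It was at 429.5, 507 and 479 CPM in CDC-EpiC, 243, 213 and 221 in CDC and 218, 225 and 233 in pEpiC, and CDC and pEpiC overlapped (-0.05, adjusted p = 0.541), although pEpiC was higher with the length offset (0.33). The clone was 2.08-fold higher than CDC (log2 change 1.06 ± 0.0870 (SE), adjusted p = 3.97e-08) and 2.09-fold higher than pEpiC (1.06 ± 0.0654 (SE), adjusted p = 1.72e-07, or 0.59 with the length offset). In CDC-EpiC against CDC it was the member called higher against a 1.5-fold change. Fads1, the delta-5 desaturase that acts after it and lies beside it on chromosome 19, was higher in both kinds than in CDC, at 321, 288 and 337 CPM in CDC, 492, 535 and 532 in CDC-EpiC and 476, 516 and 531 in pEpiC. The log2 changes against CDC were 0.72, adjusted p = 2.11e-06 in the clone, and 0.64, adjusted p = 1.88e-05 in pEpiC, and the clone and pEpiC overlapped (0.03).

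The remaining fatty acid enzymes supply, build or lengthen saturated chains. Acly, which supplies acetyl-CoA from citrate, was at 310.3, 327 and 315 CPM in pEpiC, 217, 206 and 236 in CDC and 199, 210.3 and 220.2 in CDC-EpiC. Its log2 change in pEpiC against CDC was 0.49, adjusted p = 5.55e-05, and 0.13 with the length offset. Acaca, acetyl-CoA carboxylase, was at 133, 146 and 152 CPM in pEpiC, 93.1, 86.0 and 114 in CDC and 87.8, 87.5 and 93.9 in CDC-EpiC, and its difference between pEpiC and CDC (0.51, adjusted p = 0.000693) turned to -0.18 with the offset. Between CDC-EpiC and pEpiC, Acaca went from -0.68 to -0.07, and the call was lost. Fasn, fatty acid synthase, was at 580.4, 611 and 608 CPM in pEpiC, 527, 433 and 462 in CDC and 536, 593 and 553 in CDC-EpiC, and likewise turned from 0.30 to -0.44, with the clone then higher than pEpiC (0.58). The call of Fasn as higher in the clone than in CDC (0.24, adjusted p = 0.0274) was lost without CDC library 2, or without CDC-EpiC library 2 or 3. Elovl6, the elongase of palmitate, was lower in the clone (29.1, 28.2 and 30.1 CPM) than in CDC (39.2, 37.5 and 43.2) and pEpiC (47.7, 52.2 and 51.9), with log2 changes of -0.46, adjusted p = 9.96e-05 and -0.80, adjusted p = 4.96e-07, the latter -0.39 with the offset. In pEpiC against CDC, Elovl6 turned from 0.30 to -0.24.

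By mean CPM, 10 members ran from pEpiC through CDC to CDC-EpiC, and for 6 of them (Hmgcs1, Idi1, Hsd17b7, Insig1, Scd2 and Elovl6) both neighbours in the order were called. The reverse order held for 7, with both neighbours called for Pmvk, Fdft1 and Acat2. A further 7 ran from pEpiC through CDC-EpiC to CDC, with both neighbours called for Nsdhl, Dhcr7 and Scd1. Of the remaining 6, both neighbours were called for Mvk. Several of these orders depended on length. With the offset, pEpiC against CDC was at -0.14 for Hsd17b7, -0.24 for Scd2, -0.24 for Elovl6 and 0.01 for Pmvk, and CDC-EpiC against pEpiC was at -0.01 for Mvk. The step from CDC to pEpiC was also lost for Hsd17b7 without CDC library 1 or 2 or pEpiC library 2 or 3, and for Scd2 without CDC library 1 or pEpiC library 2. For Insig1 the libraries of CDC and CDC-EpiC overlapped, and the call between them was lost in 9 alternatives. On TPM the step from CDC to pEpiC was lost for Pmvk, Fdft1 and Acat2, and the step from CDC-EpiC to pEpiC for Mvk. Without CDC libraries 1 and 2, Scd1 in CDC-EpiC against CDC was at 0.15 in place of 0.35. The same call in the same direction was kept in every alternative other than the test against 1.5-fold by 11 members in pEpiC against CDC (8 higher and 3 lower), by 18 in CDC-EpiC against CDC (9 and 9) and by 18 in CDC-EpiC against pEpiC (6 and 12). The share of all genes that kept a call in this way was not computed, so these counts cannot be set beside a background. Differences beyond 1.5-fold were called for 5, 2 and 13 members (16.7%, 6.67% and 43.3%), where 41.0%, 28.2% and 48.6% of all genes were called so. In pEpiC against CDC these were Nsdhl and Scd1 (higher) and Mvk, Ebp and Scap (lower), and in CDC-EpiC against CDC they were Fads2 (higher) and Hsd17b7 (lower). In CDC-EpiC against pEpiC they were Pmvk, Fdft1, Ebp, Acat2, Scap and Fads2 (higher) and Hmgcs1, Idi1, Hsd17b7, Insig1, Acaca, Scd1 and Elovl6 (lower), of which Acaca lost its call with the length offset.

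Ratios between 2 genes of the same library do not depend on its total, but they still carry the trend with transcript length. After the values had been seen, 5 pairs were formed. The ratio of Scd1 to Scd2 on TPM was 0.171 ± 0.00634 in CDC, 0.275 ± 0.00896 in CDC-EpiC and 0.447 ± 0.00612 in pEpiC. Fads2 to Fads1 was 1.65 ± 0.121, 2.09 ± 0.0887 and 1.02 ± 0.0269 in the same order, and Insig1 to Scap was 2.60 ± 0.477, 1.94 ± 0.331 and 5.88 ± 0.561. Hmgcs1 to Fdft1 was 0.900 ± 0.134, 0.498 ± 0.0601 and 1.66 ± 0.0808, and Srebf1 to Srebf2 was 0.434 ± 0.0238, 0.337 ± 0.0230 and 0.584 ± 0.0277. Between CDC-EpiC and pEpiC each ratio differed by more than the spread of the libraries. With the length offset in pEpiC against CDC, Fads2 was at 0.33 in place of -0.05 and Fads1 at 0.44 in place of 0.64. Insig1 was at 0.43 in place of 0.48, and Scap at -1.04 in place of -0.71. Since the pairs were chosen on their ratios, they are a description with no test.

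Within CDC the members were uneven between libraries. CDC library 3 was the highest of the 3 for 18 of 30 members (60.0%), 10 of 17 sterol enzymes and 6 of 8 fatty acid enzymes, whereas it was highest for 42.7% of 12621 genes tested in all comparisons. The median log2 ratio of library 3 to the other two was 0.16 over the members and 0.02 over all genes. Hmgcs1 varied most in CDC, with a coefficient of variation of 14.96%. The median coefficient of variation of the members was 8.43% in CDC, 4.71% in CDC-EpiC and 4.15% in pEpiC, beside 7.96%, 6.75% and 5.08% over all genes. Library 3 is also the CDC library nearly without haemoglobin and albumin transcripts, and the part of those transcripts in the unevenness was not tested. With library 3 alone standing for CDC, and assumed to vary like the libraries of the other kind, 21 members were called in pEpiC against CDC and 24 in CDC-EpiC against CDC, in place of 24 and 22. In pEpiC, library 1, with the most macrophage transcripts, was the highest of the 3 for 5 members and for no fatty acid enzyme, and without it 24 members were called against CDC and 25 between CDC-EpiC and pEpiC, the counts found with it.

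**Figure D4:**
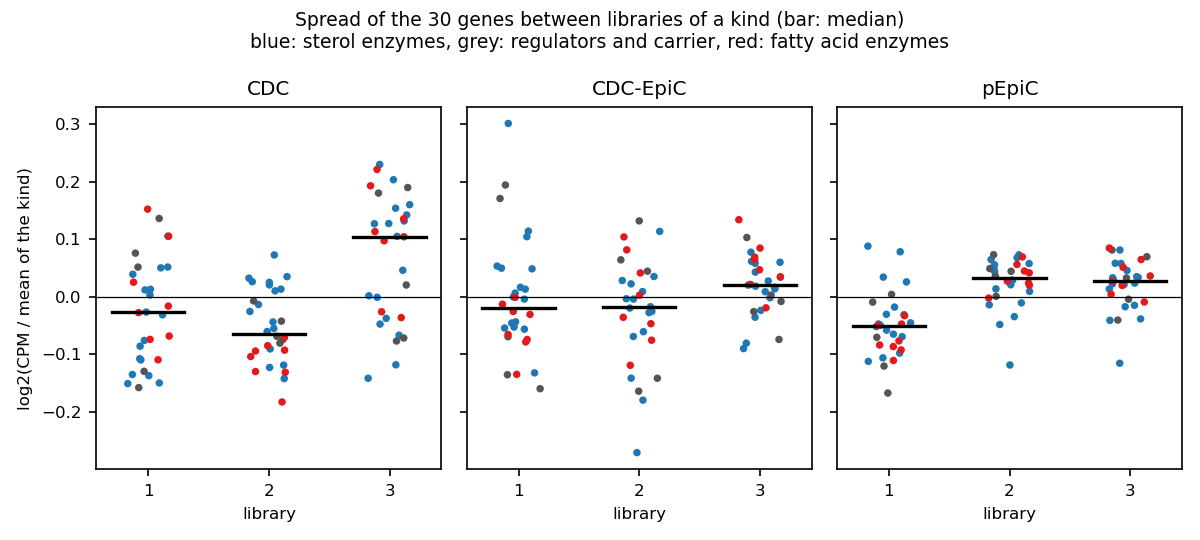
Log2 ratio of each member's CPM to its mean in the kind, per library, with a bar at the median. Members lie mostly above 0 in CDC library 3 (highest of the 3 for 18 of 30), and spread less in pEpiC than in CDC.

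The neighbouring parts of lipid metabolism were described in 7 lists. Over all genes tested, 39.8% were called higher and 38.5% lower in pEpiC than in CDC. For CDC-EpiC against CDC the shares were 34.2% and 34.6%, and for CDC-EpiC against pEpiC 40.3% and 41.5%. The lists are short, and their counts are to be read beside these shares and are no result about the pathways. Of 5 other sterol synthesis genes tested, 2 were higher and 3 lower in pEpiC than in CDC (median log2 change -0.19, and 0.37 with the length offset). Tm7sf2 and Lbr, the paired C14 sterol reductases, went apart there, with Tm7sf2 higher by 1.501 (18.5 ± 0.592 against 6.34 ± 0.637 CPM) and Lbr at -1.20 (19.7 ± 1.05 against 43.9 ± 3.07 CPM). Against CDC, CDC-EpiC was higher for 4 of the 5, with Tm7sf2 at 0.78 and Acat1, the mitochondrial acetoacetyl-CoA thiolase, at 0.45. Of 9 genes of SREBP processing and sterol-regulated degradation, 4 were higher and 2 lower in pEpiC than in CDC, and 3 and 3 in CDC-EpiC. Insig2, the paralogue of Insig1, was called higher than in CDC in both kinds (0.42 in pEpiC and 0.64 in CDC-EpiC). Erlin1 was called lower in both (-0.60 and -0.69).

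Of 8 genes of lipoprotein uptake and lysosomal export, 5 were higher and 2 lower in pEpiC than in CDC (median log2 change 0.54, and 0.22 with the length offset), and 5 were higher and 2 lower in CDC-EpiC than in CDC (median 0.42). Between CDC-EpiC and pEpiC, 4 were higher and 4 lower in the clone (median -0.29, and -0.42 with the offset). Vldlr, a receptor of triglyceride-rich particles, was at 138 ± 7.59 CPM in pEpiC, 33.2 ± 6.53 in CDC and 14.7 ± 0.596 in CDC-EpiC, with a log2 change of 2.01 in pEpiC and -1.18 in CDC-EpiC against CDC. Mylip, a ubiquitin ligase that acts on lipoprotein receptors, was higher in pEpiC than in CDC by 2.01, and Lipa, the lysosomal acid lipase, by 1.02. Npc2, which hands cholesterol out of lysosomes, was at 1339.8 ± 160.3 CPM in CDC-EpiC against 397 ± 37.8 in CDC (1.75).

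Among genes of sterol efflux and oxysterols, 5 of 9 were higher and 1 lower in pEpiC than in CDC. Abcg1, a sterol exporter abundant in macrophages, was at 244, 192 and 188 counts in pEpiC, 6, 0 and 2 in CDC and 0, 1 and 0 in CDC-EpiC, and the macrophage marker sum was also highest in pEpiC. The part of macrophages in the level of Abcg1 was not tested. Cyp7b1 and Cyp27a1, which hydroxylate oxysterols and cholesterol, were higher in pEpiC by 2.28 and 1.78. Of 19 other fatty acid genes, 5 were higher and 8 lower in pEpiC, with Elovl7 at -1.68 and Acss2, which makes acetyl-CoA from acetate, at 1.02. Of 18 tested in CDC-EpiC against CDC, 7 were higher and 7 lower, the largest differences being the lower Elovl4 (-1.49), Elovl7 (-1.06) and malic enzyme Me1 (-1.01). Elovl4 and Elovl7 rested on few counts. Elovl4 was at 22, 41 and 31 counts in CDC and 10, 13 and 11 in CDC-EpiC. Elovl7 was at 46, 50 and 47 in CDC, 25, 18 and 27 in CDC-EpiC and 24, 12 and 12 in pEpiC. Of 11 genes of acyl-CoA activation and triglyceride synthesis, 3 were higher and 5 lower in pEpiC, and 3 and 4 in CDC-EpiC, than in CDC. Lpin1, a phosphatidate phosphatase, was higher than in CDC in both kinds, at 77.8 ± 4.34 CPM in pEpiC and 83.0 ± 4.63 in CDC-EpiC against 23.8 ± 1.61. Dgat2, which makes triglyceride, was lower in both (-0.96 in pEpiC and -1.87 in CDC-EpiC), as was Pparg (-0.73 in pEpiC and -1.56 in CDC-EpiC). Of 10 genes of fatty acid oxidation, 5 were higher and 5 lower in pEpiC than in CDC, with Ppargc1a at 1.47 and Cpt1b at 1.34, and in CDC-EpiC 2 were higher and 5 lower, with Cpt1a at -0.89 and Acadm at -0.51. Ppargc1a also rested on few counts, at 13, 16 and 20 in CDC and 45, 49 and 53 in pEpiC.

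**Figure D5:**
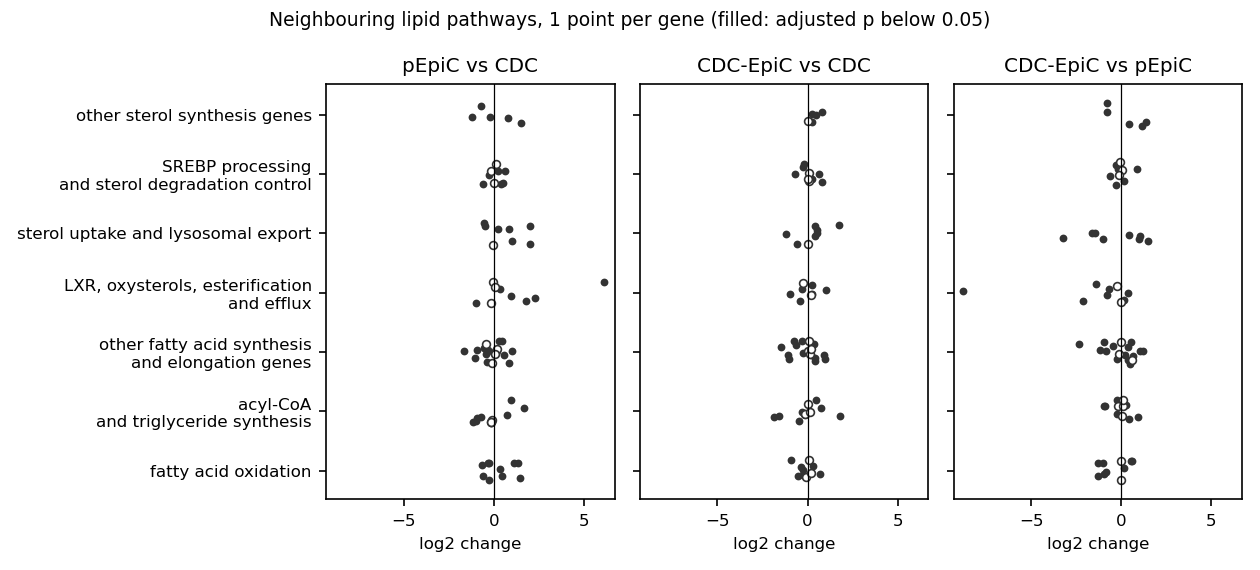
Log2 change of each tested gene of the 7 neighbouring lists in the 3 comparisons, with 1 point per gene, filled where the adjusted p was below 0.05. Genes of uptake lie on both sides of 0, with Vldlr at 2.01 in pEpiC against CDC and -1.18 in CDC-EpiC against CDC, and the point of the efflux list that lies farthest from 0 in both comparisons with pEpiC is Abcg1, which held 0 to 6 counts in the libraries of the other kinds.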

How the data were processed

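A single table held 18245 genes and 3 libraries for each of CDC, CDC-EpiC and pEpiC. Oligo(dT)-selected RNA had been sequenced in pairs of 100 bases on the BGISEQ-500 platform. The submitters' processing notes name HISAT2 2.0.4, Bowtie2 2.2.5, RSEM 1.2.12, DESeq2 1.4.5 and the mouse build mm10. The values deposited by the authors are expected counts (estimates, so often not whole), FPKM (divided by transcript length and by library total) and TPM (divided by length and brought to 1 common sum). The 9 deposited columns of means equalled the means of the libraries within 0.01 and were not used. Strand use is not given in the sources used here, so overlapping and near-identical genes are uncertain. Libraries held 22008833 to 22756045 expected counts, which sets the counting error, and intervals between libraries cover only these libraries.

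Expected counts were rounded and fitted in edgeR 4.0.16 under R 4.3.3 on the 6 libraries of each pair of kinds, with filterByExpr (minimum count 10, minimum total count 15), TMM normalization and the quasi-likelihood test. P-values were adjusted by Benjamini-Hochberg over all genes tested and the threshold was 0.05. Levels are CPM, and standard errors are those of fitted log2 changes. Alternatives were library size alone or RLE in place of TMM, DESeq2 1.42.0, other filters, all 9 libraries in 1 fit, limma 3.58.1 on log2(FPKM + 1), log2(TPM + 1) and log2(TPM + 0.1), a transcript length offset, a test against a 1.5-fold change, the replicate block and libraries left out. For the offset, each gene's log2 CPM in a library was taken less its mean over the libraries compared. A lowess curve of span 0.3 was drawn through these deviations against log2 length, from genes above 5 CPM. Fits were tested on simulated data. Transcript length was taken from the counts and FPKM.

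The members and all gene lists were chosen with earlier results of these data known. All 30 members are named, and of each neighbouring pathway list up to 3 genes called with the largest change in each comparison. Genes named from the marker lists did not follow this rule and are to be read as chosen after their values were seen. Promoter windows came from RefSeq on GRCm38.p6 and were matched by NCBI Gene identifier. Plin2 and Cidec were not analysed here. Some genes of the neighbouring lists are not reported here and were left out of their counts and medians. Python 3.11.15, pandas 2.3.3, NumPy 2.4.6 and matplotlib 3.10.9 prepared the tables and figures.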

Additional observations from a re-analysis of the deposited data

How the results depend on the processing

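Counts of calls moved least. The members called stayed within 1.5 times the count in the report under every alternative other than the test against a 1.5-fold change, which called 5549, 3664 and 6578 genes and 5, 2 and 13 members in pEpiC against CDC, CDC-EpiC against CDC and CDC-EpiC against pEpiC. Leaving out 1 library at a time gave 10073 to 10838, 8248 to 9046 and 10760.0 to 11076 genes, and 22 to 25, 19 to 24 and 24 to 25 members. Leaving out CDC libraries 1 and 2, with the lone CDC library assumed to vary like the other kind's, gave 21 members in pEpiC against CDC and 24 in CDC-EpiC against CDC. Same-numbered libraries of different kinds did not deviate together (r = -0.104 to 0.171, and not every library correlated best with its own number), and with the replicate block 24, 23 and 25 members were called.

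Medians depended on scaling and length. In pEpiC against CDC the sterol median was 0.084 with library size alone, 0.088 on log2(FPKM + 1) and 0.47 on log2(TPM + 1) and log2(TPM + 0.1), and the fatty acid median was 0.51, 0.50, 0.89 and 0.90, and -0.024 with the length offset. In CDC-EpiC against pEpiC the sterol median was -0.11 with at least 10 counts in every library, -0.015 on FPKM, and -0.37 and -0.38 on TPM with pseudocounts of 1 and 0.1, and the fatty acid median was -0.99 on both and -0.16 with the length offset. On TPM the median of all genes also moved, to 0.41 and -0.33, and beyond that the cause of these shifts was not tested. With 1 library left out, the sterol median ranged over -0.035 to 0.011, 0.039 to 0.088 and -0.085 to -0.035 in the 3 comparisons, and the fatty acid median over 0.34 to 0.44, 0.029 to 0.11 and -0.66 to -0.58.

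Several members took the other sign under an alternative. With library size alone, this was so in pEpiC against CDC for Mvd (0.084), Cyp51 (0.047), Srebf1 (0.10) and Fads2 (0.067), in CDC-EpiC against pEpiC for Sqle (-0.0086). With at least 10 counts in every library, this was so in pEpiC against CDC for Mvd (0.0025) and Srebf1 (0.019), in CDC-EpiC against pEpiC for Fdps (-0.021), Sqle (-0.043) and Fads1 (-0.016). With all 9 libraries in 1 fit, this was so in pEpiC against CDC for Mvd (0.016) and Srebf1 (0.032). With limma on log2(FPKM + 1), this was so in pEpiC against CDC for Mvd (0.088), Cyp51 (0.058), Srebf1 (0.098) and Fads2 (0.075), in CDC-EpiC against pEpiC for Sqle (-0.015) and Lss (0.048). With limma on log2(TPM + 1), this was so in pEpiC against CDC for Mvd (0.47), Fdft1 (0.070), Cyp51 (0.44), Acat2 (0.019), Srebf1 (0.48), Srebf2 (0.053) and Fads2 (0.46), in CDC-EpiC against CDC for Acly (0.010), in CDC-EpiC against pEpiC for Mvk (-0.0080), Mvd (-0.058), Fdps (-0.34), Sqle (-0.37) and Fads1 (-0.35). With limma on log2(TPM + 0.1), this was so in pEpiC against CDC for Mvd (0.47), Fdft1 (0.071), Cyp51 (0.44), Acat2 (0.019), Srebf1 (0.48), Srebf2 (0.054) and Fads2 (0.46), in CDC-EpiC against CDC for Acly (0.011), in CDC-EpiC against pEpiC for Mvk (-0.0081), Mvd (-0.059), Fdps (-0.34), Sqle (-0.38) and Fads1 (-0.35). With the length offset, this was so in pEpiC against CDC for Pmvk (0.011), Mvd (0.22), Fdps (0.014), Lss (-0.090), Hsd17b7 (-0.14), Stard4 (-0.36), Fasn (-0.44), Acaca (-0.18), Scd2 (-0.24), Elovl6 (-0.24) and Fads2 (0.33), in CDC-EpiC against CDC for Msmo1 (-0.064), Ebp (-0.0065) and Srebf2 (-0.056), in CDC-EpiC against pEpiC for Mvk (-0.0070), Mvd (-0.034), Fdps (-0.57), Sqle (-0.063), Lss (0.28), Cyp51 (0.027) and Fasn (0.58). Without CDC libraries 1 and 2, this was so in pEpiC against CDC for Mvd (0.033), Srebf1 (0.054) and Stard4 (-0.14), in CDC-EpiC against CDC for Msmo1 (-0.12) and Sc5d (-0.011). With DESeq2, this was so in CDC-EpiC against pEpiC for Sqle (-0.0094). With RLE normalization, this was so in CDC-EpiC against pEpiC for Sqle (-0.016). With 1 library left out, values of both signs were found for Srebf1 in pEpiC against CDC (-0.057 to 0.017), Stard4 in pEpiC against CDC (-0.040 to 0.13), Fads2 in pEpiC against CDC (-0.088 to 0.00048), Cyp51 in pEpiC against CDC (-0.14 to 0.011), Msmo1 in CDC-EpiC against CDC (-0.061 to 0.078), Srebf2 in CDC-EpiC against CDC (-0.054 to 0.083), Sqle in CDC-EpiC against pEpiC (-0.020 to 0.033) and Fads1 in CDC-EpiC against pEpiC (-0.014 to 0.071). The cause of these changes was not tested.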
